A study of Mus musculus with 2 samples.

Results

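The MER (medium reiteration frequency) entries of a repeat table were described in H3.3S31ph ChIP-seq of mitotic mouse embryonic stem cells. Members were all rows whose name begins with MER and a digit, which gave 141 of the 952 repeat types counted. One library was chromatin immunoprecipitated with an antibody against histone H3.3 phosphorylated at serine 31, and the other was the input, sequenced with no antibody. Both came from wild-type cells of strain 129S1/SvImJ, all treated with the CDK1 inhibitor RO-3306 at 9 µM for 12 hours, released, and harvested 11 hours later. Fixation with formaldehyde at 0.4% for 10 min was also shared by both. There was 1 sample in each group, run on 2 lanes that were summed, so no test between ChIP and input was possible. Intervals in parentheses are 95% intervals that cover counting error only and carry nothing on the spread between cultures.

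MER is an old label rather than a biological class. The families were numbered as interspersed repeats were found, before their origins were known, and the name now covers unrelated elements. Many are short nonautonomous DNA transposons, which lack a transposase of their own and were moved by that of an autonomous relative. The hAT group and the Tigger/mariner group are the main sources. Others are long terminal repeats (LTRs), the promoter-bearing ends of endogenous retroviruses, or the internal sequence that lay between such ends. Of these, ERV1 elements are related to gammaretroviruses, and ERVL elements form a separate, older group. Most MER families are fossils shared with other mammals. H3.3 is a histone H3 variant deposited outside of replication, and phosphorylation of its serine 31 is a mitotic mark known from telomeric and pericentromeric chromatin in mouse stem cells. Class membership was taken from general knowledge of the MER numbers and is not in the deposited tables, and rows whose class was not certain were left unplaced.

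MER rows held 194047 ChIP reads and 178910 input reads. These were 1.59% (exact interval 1.58 to 1.59) of ChIP reads in the table and 2.02% (2.01 to 2.03) of input reads in the table. The ratio of a row is its share of ChIP table reads over its share of input table reads. Over all MER rows pooled it was 0.785 (0.780 to 0.790). Shares add up to a fixed total, and a ratio below 1 was the common state of this table. The median repeat, taken over 704 repeats that passed a minimum of 100 input reads, had a ratio of 0.805, and values relative to it are given as differences on the log2 scale. On that scale the pooled MER rows stood at -0.036 (-0.045 to -0.027).

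Of the 141 rows, 114 had at least 100 input reads and were analysed row by row. They held 99.4% of the MER input reads, with a median of 644 and at most 20188 input reads a row. The median MER row had a ratio of 0.779, which is -0.048 relative to the median repeat on the log2 scale. The quartiles of the rows were at -0.12 and 0.019. By the interval of the ratio against 1, 0 rows lay above it, 7 included it, and all others of the 114 lay below it. Among all 704 repeats 79.5% lay below 1 and 7.81% above it. Against the median repeat, 19 MER rows lay below and 4 above, and 91 included it. The shares over all repeats were 19.2% below and 27.3% above. The share of MER rows below the median repeat, 16.7%, was thus near that of repeats in general, while the share above it was 3.51%. The median analysed repeat had 1420.5 input reads, more than the 644 of MER rows, and the part of depth in these shares was not tested. A log2 distance of 0.32 from the median repeat was reached downwards by 2 MER rows and upwards by 0, against 2.41% and 11.1% of all repeats.

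**Figure D1:**
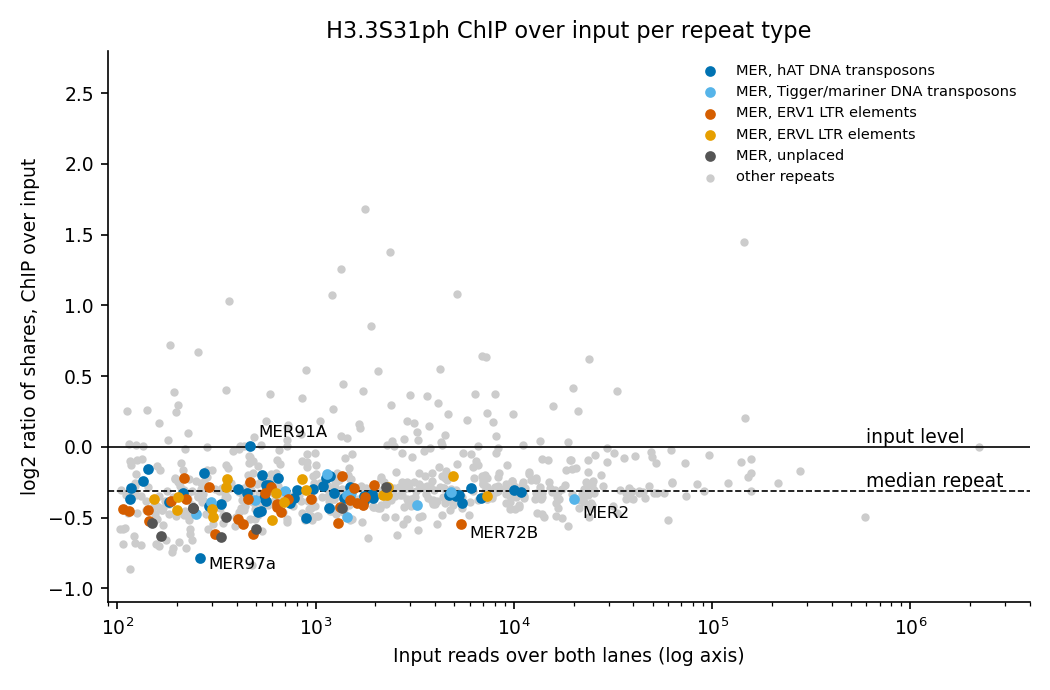
Log2 ratio of ChIP share over input share (y) against input reads over both lanes (x, log axis) for each repeat with at least 100 input reads; coloured points are the 114 analysed MER rows by class, grey points other repeats. MER rows gather around the median repeat (dashed line, ratio 0.805), and of all MER rows plotted only MER91A reaches the input level (solid line); 2 other repeats lie outside the plotted range.

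The classes inside the MER label differed little. The hAT rows, the largest class with 46 rows of which 45 were analysed, held 46.1% of MER input reads and had a pooled ratio of 0.795 (0.788 to 0.803). Tigger/mariner rows, 13 with 12 analysed, had a pooled ratio of 0.778 (0.767 to 0.789). These DNA transposon classes therefore stood -0.018 and -0.049 relative to the median repeat, and the Tigger/mariner rows were lower than the hAT rows by a log2 difference of -0.032 (-0.056 to -0.0072). ERVL rows, 18 with 17 analysed, had a pooled ratio of 0.806 (0.792 to 0.820), an interval that includes the median repeat. ERV1 rows, 49 with 31 analysed, had one of 0.755 (0.742 to 0.767). The ERV1 rows were lower than the ERVL rows by a log2 difference of -0.094 (-0.13 to -0.060), which was -0.064 (-0.10 to -0.029) without the row MER72B. Together the LTR-derived rows stood -0.022 (-0.042 to -0.0013) below the DNA transposon rows, a difference smaller than that between the LTR classes.

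Taken row by row, hAT and ERVL were nearest to the median repeat and the unplaced rows farthest below it. Relative to the median repeat, the median row was at -0.021 for hAT, -0.028 for ERVL, -0.049 for Tigger/mariner, -0.081 for ERV1 and -0.19 for the 9 analysed unplaced rows. Rows below the median repeat by their interval numbered 5 of 45 for hAT (11.1%), 3 of 12 for Tigger/mariner (25%) and 7 of 31 for ERV1 (22.6%). They numbered 1 of 17 for ERVL (5.88%) and 3 of 9 for unplaced rows (33.3%). Over all repeats the share was 19.2%. Each class but the unplaced one had 1 row above the median repeat, where 27.3% of all repeats lay. The interval covers only counting error, and classes differ in depth: the median analysed row had 1432 input reads among Tigger/mariner, 777 among hAT, 634 among ERVL, 593 among ERV1 and 334 among unplaced rows.

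**Figure D2:**
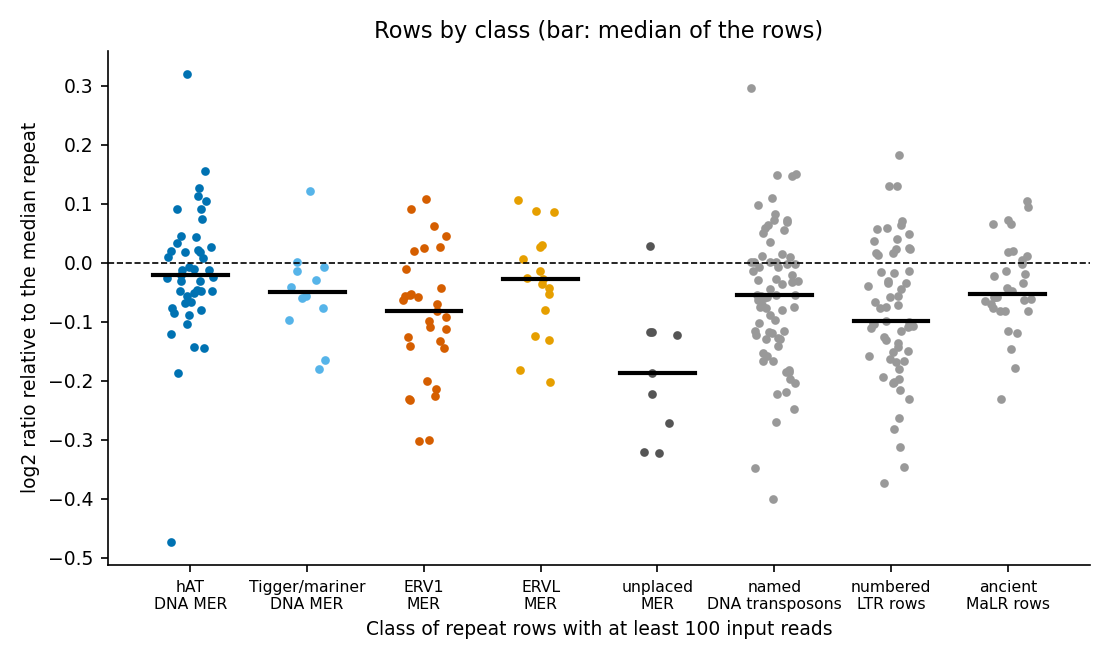
Log2 ratio relative to the median repeat (y) for each row with at least 100 input reads, by MER class and, in grey, for 3 other sets of old repeats (x); bars are medians over rows. Medians of the MER classes run from -0.021 (hAT) to -0.19 (unplaced), and those of the grey sets from -0.053 to -0.098.

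Other old repeats of the same origins stood at nearly the same level as the MER rows. The 77 rows of named DNA transposons, such as Tigger and Charlie, the autonomous relatives of several MER families, had a pooled ratio of 0.781. The log2 difference of MER rows from them was 0.0077 (-0.0058 to 0.021). Against the 32 ancient MaLR rows (MLT1 and MST, old LTR elements of mammals), which had a pooled ratio of 0.781, it was 0.0084 (-0.0045 to 0.021). Both intervals include 0, and both end at 0.021. MER rows stood above the 79 numbered LTR rows, at 0.772, by 0.024 (0.0035 to 0.045). The share of analysed rows below the median repeat by interval was 16.7% for MER rows, 26% for named DNA transposons, 23% for numbered LTR rows and 34.4% for ancient MaLR rows. Depth differed between these sets, with 644 input reads in the median analysed MER row, 496 in that of named DNA transposons, 483 in that of numbered LTR rows and 3035 in that of ancient MaLR rows, and its part in the shares was not tested. Against all other repeats pooled, which include the telomeric repeat and the satellites, the MER log2 difference was -0.36 (-0.36 to -0.35).

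The most abundant MER family was MER5, a set of hAT-derived elements. Its 5 rows held 22588 input reads, 12.6% of the MER total, and a pooled ratio of 0.802 (0.788 to 0.817). MER5A had 6069 and 5971 ChIP reads in lanes 1 and 2, against 5434 and 5442 input reads, a ratio of 0.801 (0.781 to 0.822). MER5B was at 0.816 (0.788 to 0.845) and MER5A1 at 0.788 (0.758 to 0.818). The family's rows ran from MER5C1, at 0.774 (0.595 to 1.01), to MER5B, so that all of its intervals overlapped and included the median repeat. MER20, a hAT-derived element known in humans as a source of regulatory sequence in endometrial cells, had 5727 and 5520 ChIP reads against 5027 and 5030 input reads. Its ratio of 0.810 (0.788 to 0.832) was not separable from the median repeat.

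MER2, a nonautonomous Tigger relative, was the row with most reads and lay slightly under the bulk. It had 11030 and 10547 ChIP reads in lanes 1 and 2, against 10204 and 9984 input reads. Its ratio was 0.774 (0.759 to 0.789), with 0.778 in lane 1 and 0.769 in lane 2. The related row MER2B went the other way. It had 711 and 675 ChIP reads against 585 and 561 input reads, and its ratio of 0.875 (0.809 to 0.948) had 0.875 in lane 1 and 0.876 in lane 2. The intervals of the MER2 rows do not overlap, and they lie on opposite sides of the median repeat. MER2B is one of only 4 MER rows above the median repeat by interval, and the one whose lanes were closest together. Its interval only just excludes the median repeat. With a minimum of 1000 input reads the median repeat has a ratio of 0.814, which the interval of MER2B includes.

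The other hAT families with many reads kept close to the bulk, although MER58, MER33 and MER63 lay below the median repeat by their intervals. MER58 had a pooled ratio of 0.784 (0.766 to 0.803). Its row MER58A had 0.779 (0.753 to 0.805), MER58B 0.792 (0.762 to 0.822), MER58C 0.768 (0.683 to 0.863) and MER58D 0.815 (0.711 to 0.934). MER33, a family of 1 row, had 2967 and 2795 ChIP reads against 2754 and 2726 input reads. At 0.761 (0.733 to 0.790) MER33 was the lowest hAT family with at least 1000 input reads. MER63 had 0.775 (0.748 to 0.803), from 0.741 (0.683 to 0.803) in MER63A to 0.798 (0.739 to 0.863) in MER63B. MER45 had 0.800 (0.768 to 0.834), from 0.759 (0.685 to 0.841) in MER45R to 0.831 (0.742 to 0.930) in MER45C. The Tigger-derived MER44 family, at 0.774 (0.749 to 0.800), also lay below the median repeat by its interval. Its rows ran from MER44B at 0.752 (0.717 to 0.790) to MER44C at 0.806 (0.727 to 0.894), and these intervals overlapped.

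At the upper end of the MER rows stood MER91A, a hAT-derived row. It had 343 and 305 ChIP reads in lanes 1 and 2, against 218 and 249 input reads, and a ratio of 1.00 (0.890 to 1.13). This is 1.248 times the median repeat, just short of that log2 distance of 0.32. The lanes differed, with 1.13 in lane 1 and 0.892 in lane 2, although both were above the median repeat. The family's other rows, MER91B at 0.878 (0.746 to 1.03) and MER91C at 0.817 (0.632 to 1.06), had intervals that included both the median repeat and 1. MER102b, at 0.865 (0.800 to 0.935), had 0.948 in lane 1 and 0.784 in lane 2, and its interval included the median repeat. The lowest row of that family, MER102a, was at 0.810 (0.736 to 0.892).

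The lowest analysed row was MER97a, also hAT-derived. It had 210 ChIP reads over both lanes, against 262 input reads. Its ratio of 0.580 (0.482 to 0.698) was 0.7209 times the median repeat, with 0.503 in lane 1 and 0.673 in lane 2. The family's other rows had higher ratios. MER97b was at 0.896 (0.715 to 1.12), and its interval does not overlap that of MER97a. MER97c, at 0.764 (0.620 to 0.940), and MER97d, at 0.710 (0.475 to 1.06), had intervals that overlap it. All rest on few reads, with 143 input reads in MER97b, 182 in MER97c and 53 in MER97d.

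**Figure D3:**
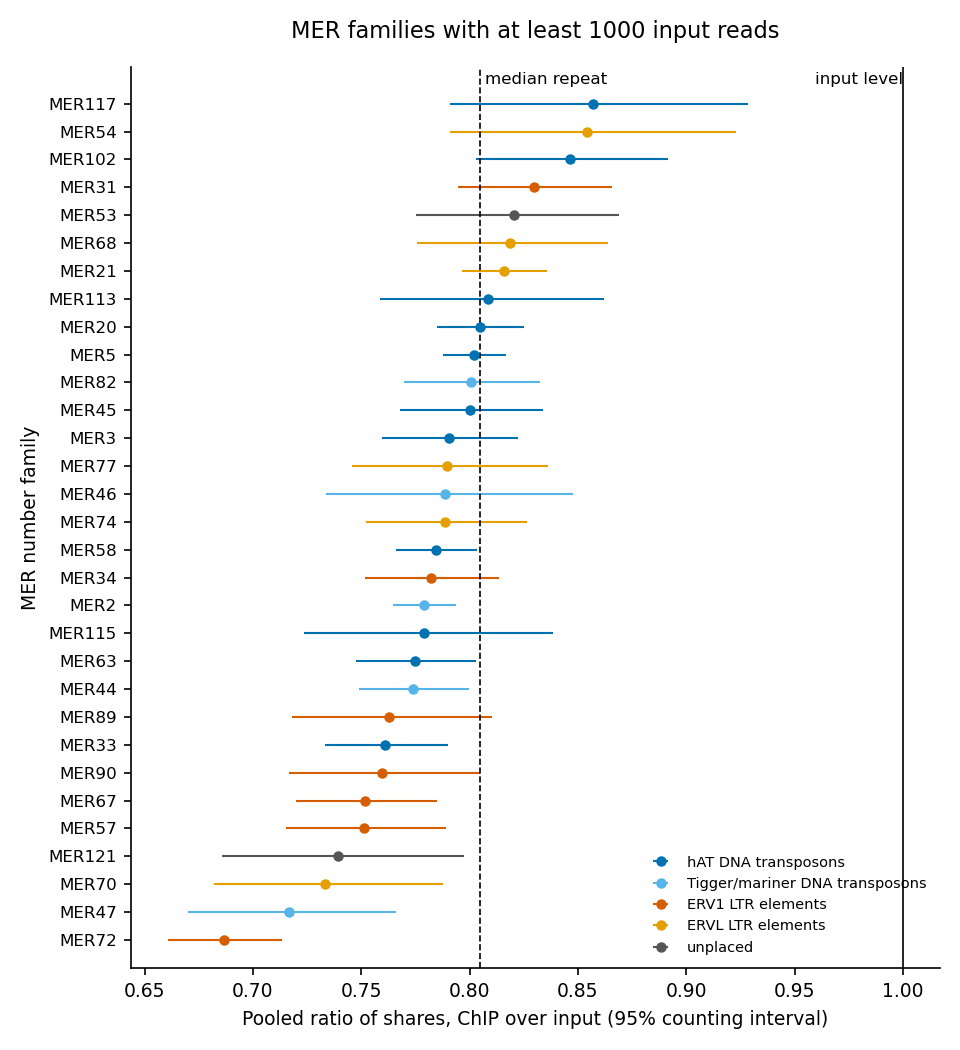
Pooled ratio of ChIP share over input share (x) with its 95% counting interval for the 31 MER families with at least 1000 input reads (y), coloured by class. All intervals lie below 1 (solid line), 12 lie below the median repeat (dashed line) and 0 above it, with MER72 lowest at 0.687 and MER117 highest at 0.857.

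Among the 72 MER number families, 31 had at least 1000 input reads. Of these, 12 lay below the median repeat by their interval, 0 above it, and 19 included it. All 31 had an interval below 1. Among the 406 single repeats with at least 1000 input reads, 25.1% lay below the median repeat, 36.5% above it and 84.7% below 1. A family sums several rows and is often deeper than such a repeat, so these shares are not directly comparable. The 5 families with most reads, MER5, MER2, MER58, MER21 and MER20, held 45.6% of the MER input reads, and their pooled ratios spanned 0.779 to 0.816. At the upper end were MER117, at 0.857 (0.791 to 0.928), MER54 at 0.854 (0.791 to 0.923) and MER102 at 0.846 (0.803 to 0.892), all with intervals that included the median repeat. The lanes disagreed by interval in MER117, with 0.778 in lane 1 and 0.944 in lane 2. They also did in the rows MER54A, at 0.950 and 0.771, and MER102b, at 0.948 and 0.784. At the lower end were MER72 at 0.687 (0.661 to 0.713), MER47 at 0.716 (0.670 to 0.766), MER70 at 0.733 (0.682 to 0.788) and MER121 at 0.739 (0.686 to 0.797).

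MER72B, an ERV1 row, was the lowest of the rows with many reads. It had 2555 and 2591 ChIP reads in lanes 1 and 2, against 2742 and 2690 input reads, a ratio of 0.686 (0.660 to 0.713). It stood at -0.23 relative to the median repeat, with 0.671 in lane 1 and 0.701 in lane 2. MER72B makes up nearly all of the MER72 family, since the row MER72 had 12 ChIP reads and 6 input reads. Without MER72B the pooled ratio of the ERV1 rows was 0.770 (0.757 to 0.784), still below the median repeat. Further low ERV1 rows were MER57F at 0.653 (0.572 to 0.745) and MER67D at 0.688 (0.636 to 0.745). MER57F was the lowest analysed row of MER57, where MER57D had 0.775 (0.699 to 0.859). In the MER67 family the highest row, MER67A at 0.840 (0.741 to 0.953), had an interval that barely overlapped that of MER67D.

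The LTR rows on the upper side were MER31B and MER21B. MER31B, an ERV1 row, had 800 and 826 ChIP reads against 683 and 674 input reads, and a ratio of 0.867 (0.807 to 0.933). The interval of MER31B barely excludes the median repeat of 0.805, and it includes the 0.814 found with a minimum of 1000 input reads. MER21B, an ERVL row, had 3040 and 2871 ChIP reads against 2499 and 2441 input reads, and a ratio of 0.866 (0.834 to 0.900). Its sister MER21C, with 4061 and 3870 ChIP reads against 3686 and 3629 input reads, was at 0.785 (0.760 to 0.810). These intervals do not overlap, so well-covered MER21 LTR subtypes differed beyond counting error while the family pooled to 0.816 (0.796 to 0.836). In the other ERVL families with at least 3 analysed rows, the intervals of the highest and the lowest row overlapped. MER74 rows ran from MER74C at 0.710 (0.603 to 0.835) to MER74B at 0.809 (0.738 to 0.886), and MER70 rows from MER70A at 0.700 (0.623 to 0.786) to MER70B at 0.761 (0.685 to 0.846). In the ERV1 family MER34, MER34A1 was lowest at 0.745 (0.690 to 0.804).

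Internal rows, which hold the retroviral sequence between the LTRs, were few and thin in reads. There were 19 such rows in 16 MER numbers, with 2.03% of the MER input reads, and 11 of them had at least 100 input reads. Pooled, they had a ratio of 0.761 (0.727 to 0.796), and the other 122 MER rows had 0.786 (0.781 to 0.791). The log2 difference was -0.046 (-0.11 to 0.020), an interval that includes 0. Against all LTR rows of MER numbers with an internal row, at 0.799 (0.787 to 0.812), the internal rows were lower by -0.071 (-0.14 to -0.0014). This comparison was chosen after values were seen, and its sides differ in families. MER4, MER51, MER52 and MER83 had internal rows but no LTR row. MER21 gave 12255 of the 29605 LTR input reads but 299 of the 3639 internal ones. Of the 11 analysed internal rows, 10 had a ratio under the median repeat, against 68% of the other analysed MER rows and 352 of all 704 repeats. By interval only 1, MER89-int, lay below it. That is 9.09% of internal rows, against 17.5% of the other MER rows and 19.2% of all repeats.

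**Figure D4:**
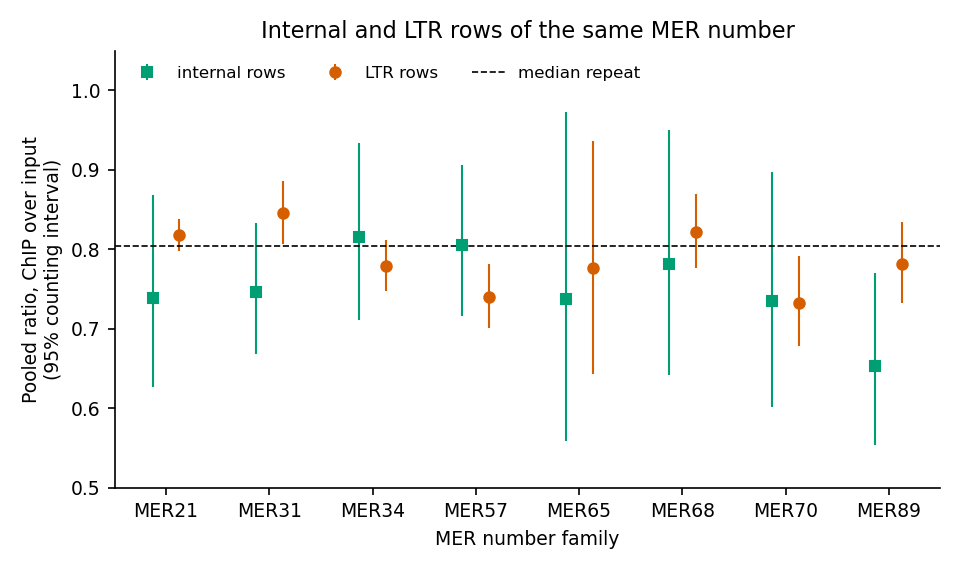
Pooled ratio of ChIP share over input share (y) with 95% counting intervals for internal rows (squares) and LTR rows (circles) of the 8 MER numbers (x) with at least 100 input reads in each; the dashed line is the median repeat. The intervals of internal and LTR rows overlap in all 8, with the internal rows lower in 5, most of all in MER89 (0.654 and 0.782).

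In 8 MER numbers both the internal and the LTR rows had at least 100 input reads, and the internal rows were lower in 5 and higher in 3. The interval of the log2 difference lay below 0 in 2, MER89 and MER31, and above 0 in none of the 8. MER89-int had 153 and 126 ChIP reads in lanes 1 and 2, against 162 and 147 input reads, a ratio of 0.654 (0.554 to 0.771), while the LTR row of MER89 had 0.782 (0.732 to 0.835). The log2 difference was -0.26 (-0.51 to -0.0068). MER31-int had 0.746 (0.669 to 0.833) and the MER31 LTR rows 0.846 (0.807 to 0.886), a log2 difference of -0.18 (-0.35 to -0.0094). Both intervals end close to 0. In MER57 and MER34 the order was the reverse, with log2 differences of 0.12 (-0.062 to 0.31) and 0.066 (-0.14 to 0.27).

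The remaining internal rows had wide intervals. MER52-int had a ratio of 0.799 (0.711 to 0.898), MER57A-int 0.774 (0.680 to 0.882), MER68-int 0.781 (0.642 to 0.951) and MER21-int 0.738 (0.627 to 0.869). MER70-int was at 0.735 (0.601 to 0.898), MER34B-int at 0.766 (0.624 to 0.941), MER34-int at 0.857 (0.713 to 1.03), MER4B-int at 0.734 (0.578 to 0.932) and MER65-int at 0.738 (0.559 to 0.973). All of these intervals include the median repeat. MER65-int, with 108 ChIP reads, was the row just inside the minimum of input reads, and MER110-int, with 94 ChIP and 99 input reads and a ratio of 0.687 (0.513 to 0.921), was just outside it.

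The unplaced rows were the lowest class by the median of their rows. MER53, the most abundant of them with 2253 input reads, was at 0.821 (0.775 to 0.869), and the other 8 analysed rows all had a ratio under the median repeat, from 0.644 to 0.742. These 8 rows have MER numbers from 121 upwards, and they include MER121, an element known for unusually strong conservation among mammals. All 15 unplaced rows pooled had a ratio of 0.754 (0.728 to 0.782), close to the 0.755 of the ERV1 rows. MER53 held 2253 of their 5864 input reads. Pooled with the 6 thinner unplaced rows, the rows other than MER53 had a ratio of 0.713 (0.681 to 0.747). That was lower than the hAT rows by a log2 difference of -0.16 (-0.23 to -0.089). Setting MER53 apart was chosen after values were seen. MER124 had 236 and 223 ChIP reads in lanes 1 and 2, against 253 and 245 input reads, a ratio of 0.667 (0.586 to 0.759). MER135 had 155 and 142 ChIP reads against 166 and 168 input reads, a ratio of 0.644 (0.549 to 0.755). Both lanes lay below the median repeat in each of these rows. MER135 was 0.7997 times the median repeat and so only just reached the log2 distance of 0.32. Base composition of the elements, which no file here gives, was not tested.

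A further 27 MER rows had under 100 input reads, 18 of them ERV1 rows, and they summed to 1015 ChIP and 1030 input reads. Their pooled ratio was 0.713 (0.653 to 0.779). The row MER50 had 7 ChIP and 20 input reads, with an interval of the ratio from 0.0905 to 0.624. MER83A-int had 3 ChIP reads and 0 input reads, so no ratio was formed. With this few reads, single rows could not be placed against the bulk beyond a wide interval.

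**Figure D5:**
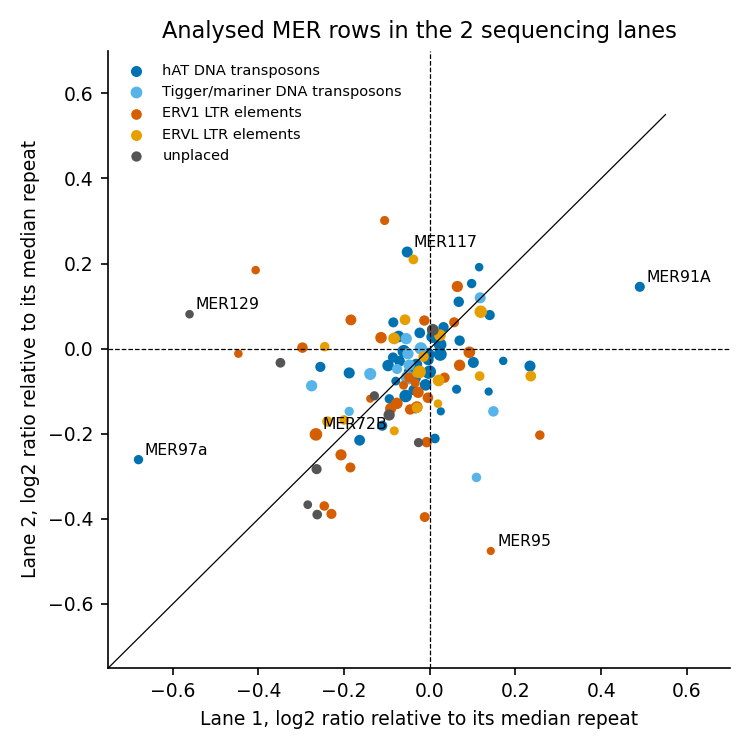
Log2 ratio relative to the median repeat of the lane in lane 1 (x) and lane 2 (y) for the 114 analysed MER rows, coloured by class, with larger points for more input reads; the line marks equal values. MER72B, a row with many reads, lies near the line, and the thin rows MER129 and MER95 lie far from it. MER117, with 1127 input reads, also lies off the line, at -0.053 in lane 1 and 0.23 in lane 2.

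How much the rows varied among themselves depended on their reads. For the 44 MER rows with at least 1000 input reads, the SD of the log2 ratio over rows was 0.078, where counting error alone would give 0.045, and their ratios ran from 0.686 to 0.875. For the 70 rows with fewer reads the SD was 0.13, where counting error alone would give 0.12. Over 362 other repeats with at least 1000 input reads the SD was 0.37. Over all analysed rows the SD of the log2 ratio was 0.11 for MER rows, 0.12 for named DNA transposons, 0.12 for numbered LTR rows and 0.075 for ancient MaLR rows. These sets were not matched for depth. The median analysed row had 644, 496, 483 and 3035 input reads in the same order, and the part of counting error in these SDs was not tested.

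The lanes are repeat runs of the same libraries and show technical spread only. Between lanes, the log2 ratio of an analysed MER row differed by 0.076 in the median row and by up to 0.64. The 95% interval of the lane difference excluded 0 in 6 of 114 rows (5.26%), against 5.97% of all 704 repeats. The 6 rows were MER102b, MER117, MER54A, MER44C, MER91A and MER110. Both lanes lay below the median repeat of the lane in 61 rows and above it in 17, and the lanes fell on different sides in 36. The same split over all repeats is not given here, so these counts cannot be set against repeats in general. By its conservative log2 values, the authors' deposited table put 2 of 141 MER rows above 0 and 70 below 0 in lane 1, against 13.3% above and 40.8% below of all 952 rows. For lane 2 the authors' deposited table had 1 MER row above and 71 below 0, against 12.9% above and 40.2% below of all rows.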

How the data were processed

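The authors deposited, for each lane, read counts of ChIP and input by repeat type, with their log2 ratio and its bounds. Bowtie 1.0.0 and build mm9 are named in the submitters' processing notes. The assignment of reads to repeat types, the handling of reads that match several types and the treatment of duplicates are not given in the sources used here. Rows are repeat types, so no coordinates or sequences were used. Single reads were 50 bp long. Without molecular identifiers, intervals and floors cover counting error only.

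Lanes were summed, giving 12235477 ChIP and 8856751 input reads. Ratios carry Clopper-Pearson intervals (95%, exact, conditional on the sum of both counts), and differences of log2 ratios have Wald intervals (Python 3.11.15, scipy 1.17.1). The median repeat was treated as fixed. The computation was tested on simulated data. Members, classes and comparisons were chosen with earlier results of these data known. Rows named were the 10 with most input reads, up to 5 highest and 5 lowest whose interval excluded the median repeat and whose lanes lay on the same side of it, all analysed internal rows, the extremes of families with at least 3 analysed rows, and the rows next to the read minimum. Families named had at least 1000 input reads. Rows outside this rule, such as MER83A-int, MER50, MER53, MER91B, MER97c, MER97d and MER72, and those named for their lane difference, were chosen after their values were seen. Alternatives were each lane alone, 3 other scales, 2 other minimums of input reads, and both counts raised by 1 read.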

Additional observations from a re-analysis of the deposited data

How the results depend on the processing

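Scale moved every level but no value relative to the median repeat. With the median repeat set to 1, some log2 ratios whose interval lay below 0 turned positive. These were the MER113, MER21, MER68, MER53, MER31, MER102, MER54 and MER117 families, at 0.0065, 0.019, 0.024, 0.028, 0.043, 0.072, 0.086 and 0.090. The rows were MER20 at 0.0083, MER5B at 0.019, MER2B at 0.12, MER31B at 0.11, MER21B at 0.11, MER44C at 0.0016, MER45C at 0.046, MER58D at 0.018, MER67A at 0.062, MER74B at 0.0072, MER102b at 0.10 and MER102a at 0.0091. Of these families and rows, only MER2B, MER31B and MER21B had an interval above 0 on that scale, and the intervals of all others included 0. Without the 5 repeats with most reads MER2B turned to 0.011. Median log2 ratios of analysed MER rows, hAT, Tigger/mariner, ERV1, ERVL and unplaced rows became -0.048, -0.021, -0.049, -0.081, -0.028 and -0.19 with the median repeat set to 1, and -0.16, -0.13, -0.16, -0.19, -0.14 and -0.30 without the 5 repeats with most reads. On the authors' deposited scale, from a constant recovered from the deposited log2 values, they were -0.19, -0.17, -0.19, -0.23, -0.17 and -0.33. Pooled log2 ratios of all, internal and other MER rows became -0.036, -0.081 and -0.035, then -0.15, -0.19 and -0.15, and then -0.18, -0.23 and -0.18 on the same 3 scales. MER rows with an interval below 1 numbered 19, 58 and 74, and those above it 4, 1 and 1. On the first of these scales the shares over all repeats were 19.2% below and 27.3% above. On the other scales they are not given here.

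In lane 1 alone the median log2 ratios were -0.34 for all analysed MER rows, -0.31 for hAT, -0.36 for ERV1 and -0.57 for unplaced rows, which are -0.034, -0.0044, -0.048 and -0.26 relative to the median repeat. In lane 2 alone the ERVL median was -0.37, or -0.058 relative to the median repeat. The MER117 family had a log2 ratio of -0.36 in lane 1 and -0.084 in lane 2. In each lane alone 12 rows lay below the median repeat, and 2 lay above it in lane 2. Rows at least 0.32 below it on the log2 scale numbered 5 in lane 1 and 6 in lane 2, and 1 row lay as far above it in lane 1. Shares over all repeats in each lane alone are not given here.

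With at least 1000 input reads, 44 of 44 rows lay below 1, 12 lay below and 1, MER21B, above the median repeat, and 0 were 0.32 or more below it. Among all 406 repeats at that minimum 84.7% lay below 1. Against the median repeat of 0.805, 25.1% of the 406 lay below and 36.5% above, while the MER counts use that of 0.814. The median of all was then -0.34, that of hAT -0.040 relative to the median repeat, and that of unplaced rows -0.36, or -0.063 relative to it. Without a minimum, 13 rows lay 0.32 or more below and 2 as far above the median repeat, and with 1 read added to both counts 1 lay as far below it. The matching shares over all repeats are not given here. Chosen after seeing the data, leaving out MER72B gave a pooled log2 ratio of -0.38 for ERV1, and leaving out MER53 one of -0.49 for unplaced rows. With these rows kept, both classes stood at -0.41. No paired analysis was possible because each group has 1 sample. Depth limits rows with few reads: 27 of 141 had under 100 input reads.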
